A study of Sus scrofa with 12 samples.

Results

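The comparison described here is the cold response of the liver in Hezuo pigs: 3 liver libraries from Hezuo pigs kept at −15 ± 2 °C, against 3 liver libraries from Hezuo pigs kept at 23 ± 2 °C, all taken on day 15. These are 6 of the 12 small RNA libraries of the series. They were chosen by the breed and temperature in the sample labels, and every listed microRNA (miRNA) was kept. The other 6 libraries are livers of Bama pigs under the same temperatures. Hezuo is a Tibetan-type pig breed of northwest China, and the animals carry no transgene or drug in the labels. No label gives the age, the sex or a processing batch. The labels give each library a pig number from 1 to 3 within its breed and temperature, and the same numbers occur at both temperatures, without saying whether a number marks the same animal. The p-values therefore measure the spread between these libraries.

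miRNAs are small RNAs that guide Argonaute proteins to messenger RNAs, which are then repressed. Target choice rests mainly on the seed, the bases from the second to the eighth position, so miRNAs with a common seed form a family. Liver RNA is dominated by a few miRNAs of hepatocytes, chiefly miR-122, which acts in cholesterol and fatty acid metabolism, and miR-148a, which represses the LDL receptor and the ABCA1 exporter in human and mouse cells. In cold, the liver supplies glucose and lipids to heat-producing tissues, and several of the miRNAs below are known from lipid, glucose or brown fat studies in mice.

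The table lists 774 miRNA entries: 303 named porcine miRNAs, 379 sequences named after miRNAs of other species (ending in x, y or z), and 92 predicted ones (written with an m number). The prefixes of the porcine and the predicted names are left out below. Many of the second kind are length forms of a porcine miRNA, so the names alone do not show which entries are relatives. The deposited sequences of the entries on which the comparison turns are therefore shown, 5′ to 3′, with T for U and with bases 2 to 8, the seed, in capitals. The leading hepatocyte miRNAs and entries related to them in sequence come first.
miR-122-5p: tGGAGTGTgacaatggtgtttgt
miR-122-x: tGGAGTGTgacaatggtgtttgat
miR-10014-x: tGGAGTGTgacaatggtaaa
miR-148a-3p: tCAGTGCActacagaactttgt
miR-148-z: tCAGTGCActacagaactttgtta
miR-192: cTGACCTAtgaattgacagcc
miR-192-x: cTGACCTAtgaattgacagccat
miR-192-z: cTGACCTAtgaattgacagccatt
miR-215-z: tGACCTATgaattgacagccat

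miR-122-x and miR-122-5p share their first 22 bases, and miR-10014-x shares the first 17 with miR-122-5p. miR-192-x is miR-192 with 2 more bases at its 3′ end, miR-192-z has 1 more, and miR-215-z is miR-192-x without its first base. miR-215-z thus has another seed than the miR-192 forms. The next entries were lower in mean in the cold livers. Several entries named after miR-181 are shown, because miR-181-y has another seed than miR-181a and miR-181b.
miR-181a: aACATTCAacgctgtcggtgagtt
miR-181b: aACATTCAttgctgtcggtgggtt
miR-181-y: aCCACCGAccgttgactgtacc
miR-101: tACAGTACtgtgataactgaa
miR-101-y: tACAGTACtgtgataactgaagt
miR-92a: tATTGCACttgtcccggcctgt
miR-92-y: tATTGCACttgtcccggcctgtat
miR-99a-5p: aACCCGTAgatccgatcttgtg
miR-328: cTGGCCCTctctgcccttccgt

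The last set was higher in mean in the cold livers, with the longer form beside its porcine entry for miR-378 and miR-21.
miR-7-5p: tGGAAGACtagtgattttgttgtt
miR-9: tCTTTGGTtatctagctgtatg
miR-378: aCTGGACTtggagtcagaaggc
miR-378-y: aCTGGACTtggagtcagaaggcaa
miR-21-5p: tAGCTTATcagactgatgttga
miR-21-x: tAGCTTATcagactgatgttgaca
miR-29b: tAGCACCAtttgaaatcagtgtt
miR-1: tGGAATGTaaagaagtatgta
miR-95: tTCAACGGgtatttattgagca
miR-107: aGCAGCATtgtacagggctatca
miR-140-5p: aGTGGTTTtaccctatggtag
m0002-3p: cCAAACCAgttgtgcctgtag

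The entries miR-9, miR-9-1 and miR-9-2 hold the same counts in every library, although miR-9 is 1 base shorter at its 3′ end, so they are 1 measurement and are written as miR-9.

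Listed counts summed to 7988509, 8123495 and 7280349 in the cold livers and to 8357067, 10384074 and 9139562 in the normal livers, which was 86.6% to 88.2% of the library totals implied by the deposited TPM. Between 674 and 694 entries had a count in a library. Levels are given as CPM, counts scaled to a common library size after TMM scaling. TMM sets the bulk of the entries level between libraries. The TMM factors were 1.08, 0.952 and 1.10 in the cold livers and 0.979, 0.996 and 0.816 in the normal livers, so normal liver 3 stood apart, and results are also given without it. The known hepatocyte miRNAs led the libraries: miR-122-5p had the highest mean CPM, followed by miR-148a-3p and miR-192-x. Of the defining miRNAs of other tissues, miR-133a-3p of muscle had 3, 3 and 7 counts in the cold livers and 4, 5 and 4 in the normal livers, and miR-124-y of neurons had 2, 1 and 4 in the cold livers and 4, 3 and 4 in the normal livers. Other markers of such tissues were well counted. Muscle marker miR-499-5p had a mean of 121 CPM in cold and 115 CPM in normal livers. The nervous and endocrine marker miR-7-5p had 488 CPM in cold and 336 CPM in normal livers.

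No miRNA passed the test between Hezuo cold and Hezuo normal livers. In edgeR's quasi-likelihood F test 0 of the 460 tested entries (0.0%) had a Benjamini-Hochberg adjusted p below 0.05, and the smallest was 0.176. DESeq2 and limma-voom also called 0. At an unadjusted p below 0.05 stood 43 entries (9.35%), 19 of them higher in the cold livers (4.13%) and 24 lower (5.22%). The 3 cold livers lay wholly above the 3 normal livers for 34 entries (7.39%) and wholly below for 37 (8.04%). The entries described below are therefore those nearest to the threshold, and each is given as a difference in mean that did not pass. Tissue was sequenced in bulk, so fewer cells of a type and less RNA per cell cannot be told apart in any of these values.

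The typical difference was small. The median log2 difference, cold minus normal, was −0.04, the median absolute log2 difference was 0.22, and the 10th and 90th percentiles were −0.57 and 0.45. The error depended on abundance. The median standard error was 0.13 on the log2 scale for the 30 entries above 1000 CPM and 0.14 for the 70 between 100 and 1000 CPM, but 0.41 for the 202 entries between 1 and 10 CPM. Of the 30 most abundant entries 7 had an unadjusted p below 0.05, against 15 of the 202 and 9.35% of all tested entries. The 7 include miR-192-x with miR-192-z and miR-101 with miR-101-y, which are length forms of the same miRNAs. Only 14 entries differed by more than 1 on the log2 scale, 3 higher and 11 lower.

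**Figure D1:**
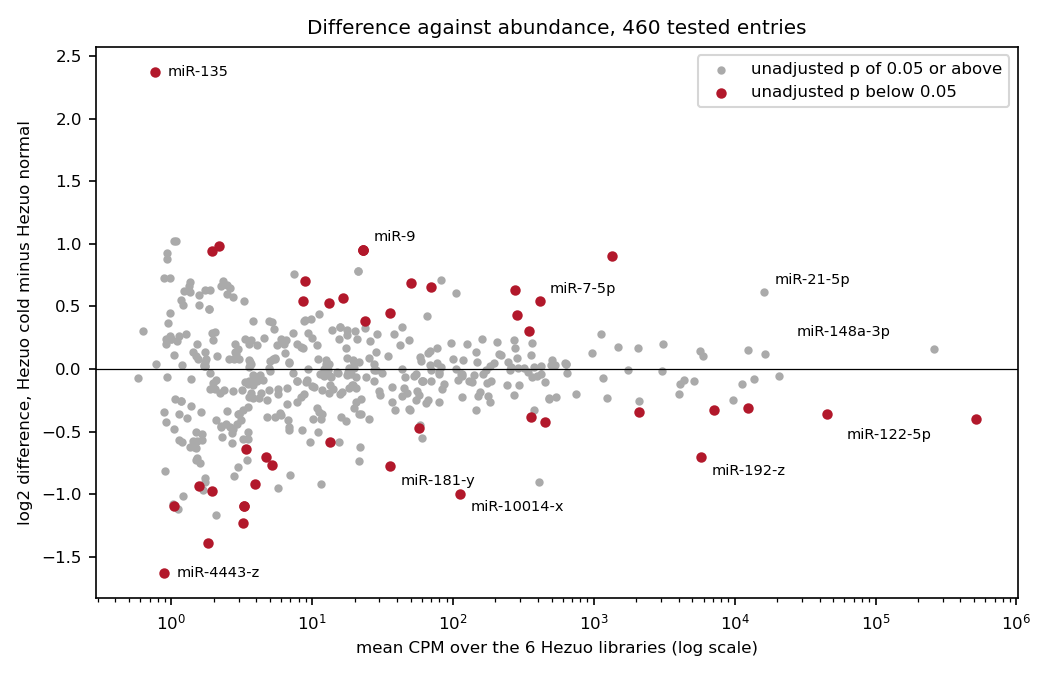
Log2 difference (Hezuo cold minus Hezuo normal) of each of the 460 tested entries against its mean CPM over the 6 Hezuo libraries (log axis); red points had an unadjusted p below 0.05 and grey points did not. The spread narrows with abundance up to 1000 CPM: the median absolute log2 difference was 0.11 between 100 and 1000 CPM and 0.17 above. miR-122-5p is the red point at the far right, and the extremes, miR-135 at 2.37 and miR-4443-z at −1.63, lie at the low end.

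The most abundant miRNA, miR-122-5p, had 394777, 507359 and 429158 CPM in the cold livers, against 525685, 525364 and 700036 CPM in the normal livers. The cold livers were all below the normal livers, though cold liver 2 came close to normal livers 1 and 2, and normal liver 3 was the highest. Its mean was 443765 ± 57695 CPM in cold and 583695 ± 100754 CPM in normal livers (SD, n = 3 each), with a log2 difference of −0.40 (SE 0.13, edgeR adjusted p = 0.355). Without normal liver 3 the log2 difference was −0.20.

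Entries related to miR-122-5p were counted apart. miR-10014-x, 20 nt long and with the same seed, had 48.5, 83.9 and 92.8 CPM in the cold livers, against 133, 99.99 and 218 CPM in the normal livers. All cold values were below all normal values, but the normal livers spread over more than the gap between the groups. The log2 difference was −1.001 (SE 0.31, edgeR adjusted p = 0.355), and −0.60 without normal liver 3. The longer miR-122-x, at 10853 ± 1809.7 CPM in cold and 11796 ± 1749 CPM in normal livers, had overlapping groups and a log2 difference of −0.12 (edgeR adjusted p = 0.841), which was above 0 when normal liver 3 was left out (0.05). The opposite strand, miR-122-3p, also overlapped, with a log2 difference of −0.18 (edgeR adjusted p = 0.841). Summed over the seed GGAGTGT, 4 entries gave 423400.0, 527481 and 439217 CPM in the cold livers, against 543502, 529549 and 699860.4 CPM in the normal livers, a log2 difference of −0.35 (SE 0.12, edgeR adjusted p = 0.540, and −0.18 without normal liver 3).

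The entries of the miR-192 and miR-215 group, which p53 induces in human cells, differed among their length forms. miR-192-z, the 24-nt form, had 4815, 3629 and 4684 CPM in the cold livers, against 7279.5, 6429.6 and 7630.5 CPM in the normal livers. No cold liver reached the lowest normal liver. The mean was 4376 ± 650.2 CPM in cold and 7113 ± 617 CPM in normal livers (SD, n = 3 each), a log2 difference of −0.70 (SE 0.16, edgeR adjusted p = 0.176), the smallest adjusted p of the comparison together with miR-181-y. Without normal liver 3 it was −0.61. The 23-nt miR-192-x had 45186, 34256 and 39371 CPM in the cold livers, against 51283, 46391 and 55157 CPM in the normal livers, again without overlap, and a log2 difference of −0.36 (edgeR adjusted p = 0.427). The 21-nt porcine entry miR-192 had 23126, 20077 and 17779 CPM in the cold livers, against 19950.1, 19425 and 24058 CPM in the normal livers. Its groups overlapped throughout, and its log2 difference of −0.06 (edgeR adjusted p = 0.949) was 0.09 without normal liver 3 and 0.13 with library totals in place of TMM. miR-192-x was −0.24 without cold liver 2. miR-215-z had a log2 difference of −0.24 (edgeR adjusted p = 0.612), which was −0.15 without normal liver 3 and −0.12 without cold liver 2. The porcine entry miR-215 went the other way in mean, at 75.0 CPM in cold and 55.7 CPM in normal livers, with overlapping groups. Its log2 difference was 0.43 (edgeR adjusted p = 0.750), and that of miR-215-x was −0.05 (edgeR adjusted p = 0.966). miR-194a-5p, encoded in clusters with miR-192 and miR-215 in human, had −0.20 (edgeR adjusted p = 0.750), and −0.06 without normal liver 3 and −0.11 without cold liver 2.

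miR-148a-3p, the second most abundant entry, had 277469, 303555 and 247006 CPM in the cold livers, against 244678, 236068 and 258352 CPM in the normal livers. The groups overlapped, with cold livers 1 and 2 the highest and cold liver 3 between the normal livers. Its log2 difference was 0.16 (SE 0.11, edgeR adjusted p = 0.750), and that of the opposite strand, miR-148a-5p, was 0.21 (edgeR adjusted p = 0.750). The 24-nt form miR-148-z had 19.3, 22.7 and 17.2 CPM in the cold livers, against 15.8, 11.0 and 13.1 CPM in the normal livers, with no overlap. On the log2 scale it differed by 0.57 (SE 0.22, edgeR adjusted p = 0.427).

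Of the other abundant entries, miR-101 and miR-99a-5p were lower in mean in the cold livers. miR-101, which represses the histone methyltransferase EZH2 in human cells, had 11299, 10759.9 and 11015 CPM in the cold livers, against 12406, 13307 and 15392 CPM in the normal livers. The cold livers lay within a narrow range below all normal livers. The fitted log2 difference was −0.31 (SE 0.12, edgeR adjusted p = 0.370), and −0.18 without normal liver 3. Its longer form miR-101-y, again without overlap, had −0.35 (edgeR adjusted p = 0.370), and −0.23 without normal liver 3 and −0.22 without cold liver 2. miR-99a-5p, which represses MTOR in human cells, had 5729.5, 6538 and 6850.1 CPM in the cold livers, against 7673, 7606 and 8690.1 CPM in the normal livers, without overlap. The log2 difference was −0.33 (SE 0.11, edgeR adjusted p = 0.370). The differences of miR-143-3p (0.12), miR-26a (−0.08), miR-126-3p (0.15), miR-27b-3p (0.18) and let-7-x (0.10) had edgeR adjusted p-values of 0.750 to 0.870. Without normal liver 3, miR-26a was 0.02, miR-126-3p 0.25 and let-7-x 0.20.

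miR-181-y had 26.3, 24.4 and 28.7 CPM in the cold livers, against 39.5, 44.9 and 51.8 CPM in the normal livers. Every cold value was below every normal value by more than the range of the cold livers. The mean was 26.5 ± 2.14 CPM in cold and 45.4 ± 6.16 CPM in normal livers (SD, n = 3 each), a log2 difference of −0.78 (SE 0.18, edgeR adjusted p = 0.176). miR-181a, which has another seed and tunes T cell receptor signalling in mice, had 342, 291 and 304 CPM in the cold livers, against 377, 427 and 419 CPM in the normal livers. These groups did not overlap, and the log2 difference was −0.38 (SE 0.12, edgeR adjusted p = 0.355). miR-181b, with the seed of miR-181a, overlapped and had a log2 difference of −0.26 (edgeR adjusted p = 0.750). The 5 entries with that seed, ACATTCA, summed to 414, 336 and 341 CPM in the cold livers, against 431, 476 and 462 CPM in the normal livers. The summed groups did not overlap, with a log2 difference of −0.33 (SE 0.12, edgeR adjusted p = 0.540).

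The remaining lower entries were miR-92a, of the miR-17-92 cluster of cell proliferation, its longer form miR-92-y, and miR-328, which favours brown fat differentiation in mice. miR-92a had 387, 313 and 448 CPM in the cold livers, against 481, 508 and 553 CPM in the normal livers, and miR-92-y had 48.3, 37.1 and 58.3 CPM in the cold livers, against 69.0, 64.1 and 66.5 CPM in the normal livers. Cold liver 2 was the lowest for both, and neither had overlapping groups. Their log2 differences were −0.43 and −0.47 (SE 0.15 and 0.19, edgeR adjusted p = 0.370 and 0.430), and −0.27 and −0.29 without cold liver 2. miR-328 had 8.90, 11.9 and 11.2 CPM in the cold livers, against 15.3, 16.8 and 15.8 CPM in the normal livers, without overlap, and a log2 difference of −0.58 (SE 0.23, edgeR adjusted p = 0.430).

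Among the entries that were higher in mean in the cold livers, miR-7-5p had the smallest p of the entries without overlap. miR-7, abundant in pancreatic islets and brain and a regulator of insulin secretion in mice, had 532, 439 and 494 CPM in the cold livers, against 325, 401 and 281 CPM in the normal livers. The lowest cold liver was above the highest normal liver. The mean was 488 ± 46.6 CPM in cold and 336 ± 60.8 CPM in normal livers (SD, n = 3 each), a log2 difference of 0.54 (SE 0.15, 1.45-fold, edgeR adjusted p = 0.355), and 0.47 without normal liver 3. The seed family GGAAGAC, of miR-7-5p and miR-7-x, had a log2 difference of 0.58 (SE 0.15, edgeR adjusted p = 0.229).

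miR-9, a miRNA of nerve cell development that is also induced by NF-κB signalling in human monocytes, had 30.2, 33.7 and 26.6 CPM in the cold livers, against 18.3, 17.02 and 11.3 CPM in the normal livers. Here too the groups were apart. The mean was 30.2 ± 3.58 CPM in cold and 15.5 ± 3.76 CPM in normal livers (SD, n = 3 each), a log2 difference of 0.95 (SE 0.30, 1.94-fold, edgeR adjusted p = 0.355), and 0.81 without normal liver 3. miR-7 and miR-9 are also markers of nervous and endocrine cells. With entries of the same counts taken once, the 7 tested members of that marker list had a median log2 difference of 0.24, and their summed level was 613, 520.0 and 636 CPM in the cold livers, against 417, 517 and 391 CPM in the normal livers, with miR-7-5p as the largest entry. The lowest cold sum was only a few CPM above the highest normal sum. Of its other markers, miR-375 of islet cells had a log2 difference of −0.55 (edgeR adjusted p = 0.841), and miR-124-y stood at the few counts given above.

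miR-378, encoded in an intron of PPARGC1B and a regulator of liver glucose and lipid metabolism in mice, had 342, 401 and 253 CPM in the cold livers, against 259.7, 216 and 169 CPM in the normal livers. Cold liver 3 lay just under normal liver 1, so the groups overlapped. The log2 difference was 0.63 (SE 0.18, 1.55-fold, edgeR adjusted p = 0.355). Its longer form miR-378-y had 11.4, 10.1 and 9.23 CPM in the cold livers, against 7.21, 7.93 and 5.90 CPM in the normal livers, without overlap, and a log2 difference of 0.54 (SE 0.23, edgeR adjusted p = 0.466). The seed family CTGGACT, which sums 4 entries, had 0.63 (SE 0.18, edgeR adjusted p = 0.265).

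miR-21, a miRNA of tissue injury and fibrosis, was counted mainly in forms of 22 and 24 nt. The longer, miR-21-x, had 1961, 2190.3 and 1078 CPM in the cold livers, against 1056, 1089.5 and 649.7 CPM in the normal livers. Cold livers 1 and 2 were about alike and high, and cold liver 3 was within the range of the normal livers. Its log2 difference was 0.90 (SE 0.35, edgeR adjusted p = 0.430). The 22-nt miR-21-5p had 21474, 23709 and 13221 CPM in the cold livers, against 13921, 14158 and 10029 CPM in the normal livers, again with cold livers 1 and 2 on top and normal liver 3 lowest, and a log2 difference of 0.62 (SE 0.28, edgeR adjusted p = 0.516).

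miR-107 and miR-103, which reduce insulin sensitivity in mice, share a seed. miR-107 had 29.7, 27.0 and 23.3 CPM in the cold livers, against 19.6, 22.9 and 18.8 CPM in the normal livers, without overlap. On the log2 scale it differed by 0.38 (SE 0.16, edgeR adjusted p = 0.466), and miR-103 by 0.22 (edgeR adjusted p = 0.630). miR-29b, which represses collagen genes, had 13.3, 16.5 and 17.1 CPM in the cold livers, against 8.93, 11.1 and 12.5 CPM in the normal livers, with the lowest cold liver just above the highest normal one. The fitted log2 difference was 0.53 (SE 0.19, edgeR adjusted p = 0.370). Of the same family, the far more abundant miR-29a-3p had 517 CPM in cold and 492 CPM in normal livers. Its groups overlapped, with a log2 difference of 0.07 (edgeR adjusted p = 0.889). The low miR-29c, at 1.85 and 1.28 CPM, had 0.51 and overlapping groups (edgeR adjusted p = 0.777).

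miR-140-5p, best known from cartilage, had 406, 384 and 356 CPM in the cold livers, against 316, 319.7 and 294 CPM in the normal livers, without overlap and with small spread in both groups. The log2 difference was 0.30 (SE 0.13, edgeR adjusted p = 0.473), and that of miR-140-3p was 0.23 (edgeR adjusted p = 0.552). miR-95 had 69.2, 121.6 and 65.4 CPM in the cold livers, against 47.8, 56.5 and 58.8 CPM in the normal livers. Cold liver 2 stood well above the rest, and the groups were apart. Its log2 difference was 0.65 (SE 0.27, edgeR adjusted p = 0.466), and 0.34 without cold liver 2. The predicted m0002-3p had 49.0, 80.5 and 57.3 CPM in the cold livers, against 38.9, 32.4 and 44.5 CPM in the normal livers, also with cold liver 2 highest, and a log2 difference of 0.69 (SE 0.31, edgeR adjusted p = 0.516).

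miR-1, a miRNA of striated muscle, had 13.7, 10.9 and 8.61 CPM in the cold livers, against 8.19, 6.38 and 5.77 CPM in the normal livers, without overlap. On the log2 scale it differed by 0.71 (SE 0.26, edgeR adjusted p = 0.370). The summed level of the muscle markers was 121, 144 and 141 CPM in the cold livers, against 125, 136 and 112 CPM in the normal livers, and these groups overlapped. miR-499-5p, which makes up most of that sum, had a log2 difference of 0.07 (edgeR adjusted p = 0.944). The part of muscle cells in the miR-1 values was not tested.

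**Figure D2:**
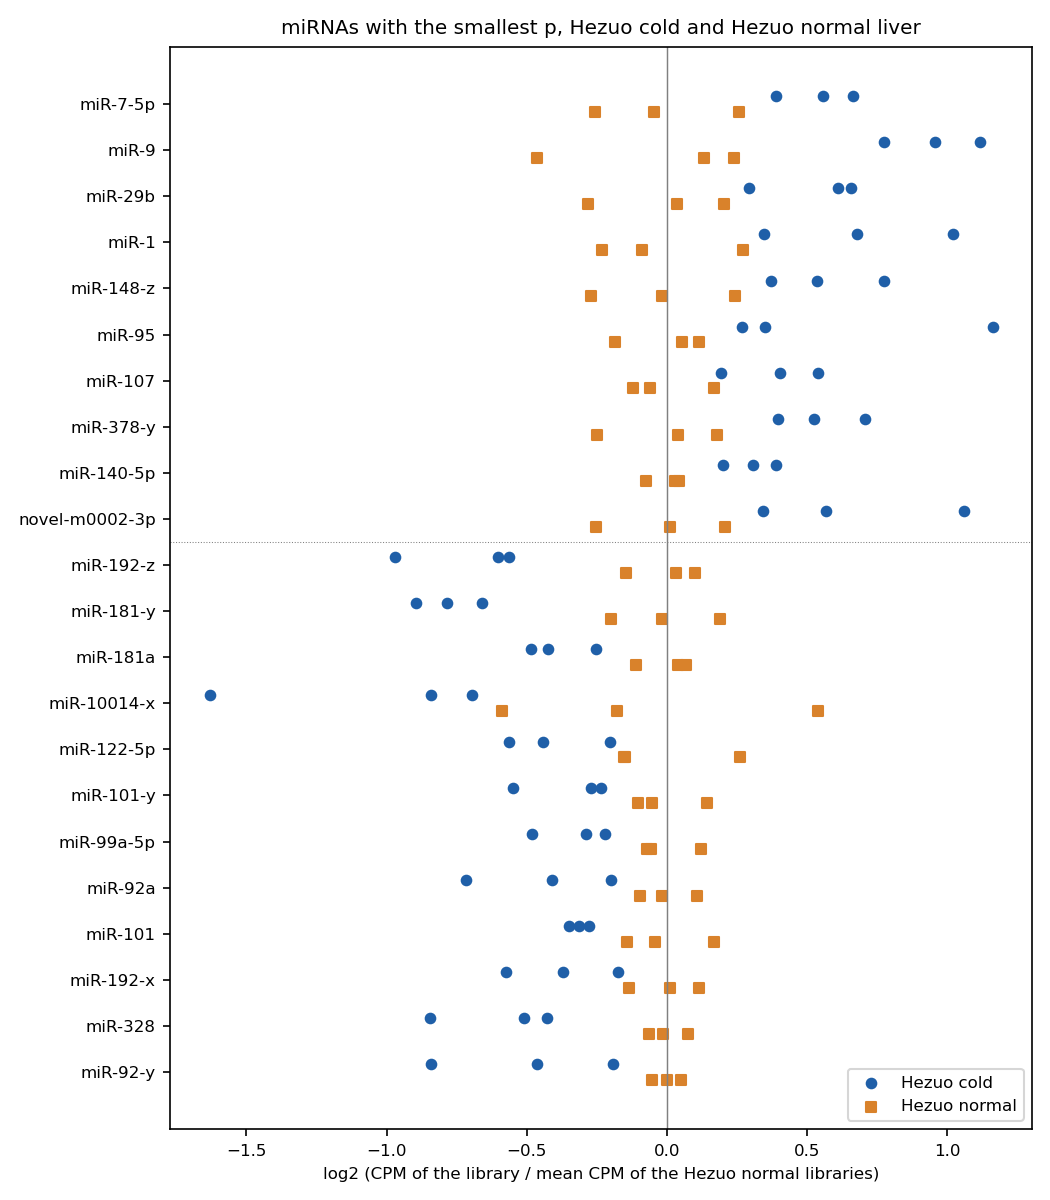
Level of the entries with the smallest p and no overlap between groups, as log2 of each library's CPM over the mean CPM of the Hezuo normal libraries; blue circles are the 3 Hezuo cold livers and orange squares the 3 Hezuo normal livers. Entries above the dotted line were higher and those under it lower in mean in the cold livers; within each row all circles lie to 1 side of all squares, which is how the rows were chosen.

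Counted by seed family, so that division of tags among length forms has no effect, 0 of 282 families (0.0%) passed edgeR's test, with a smallest adjusted p of 0.229. At an unadjusted p below 0.05 stood 24 families (8.51%; 13 without normal liver 1 and 15 without cold liver 2), 14 higher (4.96%) and 10 lower (3.55%). The summed groups did not overlap for 22 families that were higher (7.8%) and 19 that were lower (6.74%), 14.5% in all. The 2 smallest adjusted p-values belonged to the miR-7 family described above and to CCACCGA, which is miR-181-y alone and had a log2 difference of −0.74 (SE 0.18). The miR-9 family CTTTGGT had 0.99 (edgeR adjusted p = 0.265). The family of miR-185, a repressor of cholesterol uptake genes in human cells, had 52.2, 41.2 and 41.8 CPM in the cold livers, against 27.7, 39.5 and 27.6 CPM in the normal livers. Its groups did not overlap, whereas those of the entry miR-185 did, and the log2 differences were 0.51 for the family and 0.45 for the entry (edgeR adjusted p = 0.540 and 0.466). The miR-101 family ACAGTAC had −0.28 (−0.17 without normal liver 3) and the miR-328 family TGGCCCT had −0.53 (edgeR adjusted p = 0.541 for both).

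The make-up of the libraries was also described by shares of the listed counts, which need no scaling factor but must sum to the whole. miR-122-5p held 42.8, 48.3 and 47.2% in the cold livers, against 51.4, 52.3 and 57.1% in the normal livers, and miR-148a-3p held 30.1, 28.9 and 27.2% in the cold livers, against 23.9, 23.5 and 21.1% in the normal livers. Both sets of libraries were apart, miR-122-5p lower and miR-148a-3p higher in the cold livers. The differences in mean were −7.51 and 5.88 percentage points, and −5.77 and 4.996 without normal liver 3. Since shares sum to the whole, the share of miR-148a-3p was also taken of the counts without miR-122-5p. It was then 53.3% in cold and 49.2% in normal livers, a ratio of 1.08, against 28.7% and 22.8%, a ratio of 1.26, with miR-122-5p in the sum. miR-21-5p held 2.33, 2.26 and 1.46% in the cold livers, against 1.36, 1.41 and 0.818% in the normal livers, and miR-126-3p, a miRNA of endothelial cells from an intron of EGFL7, held 1.36, 1.24 and 1.51% in the cold livers, against 1.10, 1.13 and 1.04% in the normal livers. All cold shares of both were above all normal shares. A lower share of miR-122-5p raises the other shares, and in CPM the groups of both miR-21-5p and miR-126-3p overlapped.

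Entries of 22 nt made up 41.7, 39.2 and 38.5% in the cold livers, against 33.8, 33.5 and 29.5% in the normal livers, and entries of 23 nt made up 48.9, 52.5 and 52.7% in the cold livers, against 57.5, 58.0 and 62.5% in the normal livers. miR-148a-3p is 22 nt long and miR-122-5p 23 nt, and each holds most of the counts of its length. With both left out, 22-nt entries still lay apart, at a mean of 44.1% in cold and 40.01% in normal livers (SD 1.16 and 1.48, n = 3 each). The 23-nt entries lay at 20.7% and 24.4% (SD 2.05 and 0.601). Single abundant entries remain in both lengths. Of all listed counts, the 22-nt miR-21-5p held a mean of 2.01% in cold and 1.20% in normal livers. The 23-nt miR-192-x held 4.16% and 4.71%, with overlapping groups. Their part in the remaining differences was not tested. Of 25 shares examined, 6 were wholly above and 4 wholly below the normal livers in the cold livers. With 3 livers against 3 the exact two-sided permutation test cannot go below p = 0.1, which all 10 of these had, and their Benjamini-Hochberg adjusted p was 0.25. The 10 most abundant entries together held 89.97% of the counts in cold and 90.5% in normal livers, with overlapping groups.

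**Figure D3:**
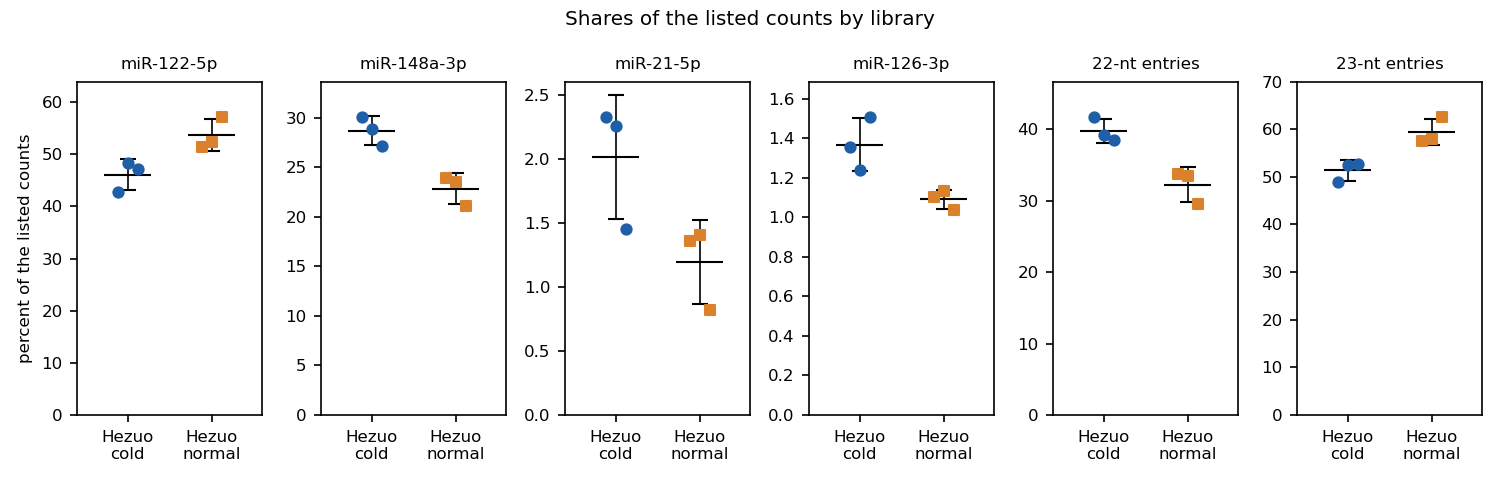
Percent of the listed counts in each Hezuo library for 4 abundant miRNAs and for the 22-nt and 23-nt entries; points are libraries, bars the mean and SD of 3, with an axis from 0 in each panel. The cold livers (left, blue) lie below the normal livers (right, orange) for miR-122-5p and the 23-nt entries and above them in the other 4 panels.

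The length forms of a miRNA were then set against each other within each library, which removes the scaling. For 33 entries that are longer than a more abundant entry with the same start, the longer form was expressed as a percent of both. In 8 of these (24.2%) the groups did not overlap, 5 with the cold livers above and 3 with the cold livers below. limma on the log2 ratios called 0 of 33 (0.0%), with 5 at an unadjusted p below 0.05 (15.2%). Without cold liver 3 it called 1, miR-221-y.

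Of the sum of miR-192-z and miR-192-x, miR-192-z made up 9.63, 9.58 and 10.6% in the cold livers, against 12.4, 12.2 and 12.2% in the normal livers. The normal livers were close together and all above the cold livers (log2 difference −0.34, SE 0.12, adjusted p = 0.187 in limma). In the Bama livers the same percent was 7.46 in cold and 9.70 in normal livers, and the difference between the breeds' log2 differences was 0.07 (limma adjusted p = 0.979). Of the sum of let-7-z and let-7-x, of the let-7 family of differentiation, let-7-z made up 0.241, 0.246 and 0.249% in the cold livers, against 0.300, 0.297 and 0.296% in the normal livers, with a narrow range in each group (log2 difference −0.28, SE 0.15, adjusted p = 0.344 in limma). In the Bama livers let-7-z went the other way in mean, at 0.201 in cold and 0.177 in normal livers, and the difference between the breeds' log2 differences was −0.47 (limma adjusted p = 0.502).

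Other longer forms were a larger part in the cold livers. Of the sum of miR-21-x and miR-21-5p, miR-21-x made up 8.37, 8.46 and 7.54% in the cold livers, against 7.05, 7.15 and 6.08% in the normal livers (log2 difference 0.29, SE 0.14, adjusted p = 0.306 in limma). Of the sum of miR-99-z and miR-99a-5p, miR-99-z made up 4.61, 4.53 and 4.12% in the cold livers, against 3.58, 3.55 and 2.97% in the normal livers (log2 difference 0.41, SE 0.15, adjusted p = 0.191 in limma). In both, normal liver 3 was the lowest, and the other 2 normal livers were still below all cold livers. Of the sum of miR-122-x and miR-122-5p, miR-122-x made up 2.20, 2.40 and 2.54% in the cold livers, against 2.03, 1.99 and 1.93% in the normal livers (log2 difference 0.27, SE 0.12, adjusted p = 0.278 in limma). In Bama livers the mean percent of miR-122-x was 1.72 in cold and 1.80 in normal livers, a difference between the breeds' log2 differences of 0.33 (limma adjusted p = 0.502). The smallest p of the 33 belonged to miR-148-z. Of the sum with miR-148a-3p, it made up a mean of only 0.00714% in cold and 0.00540% in normal livers, without overlap. The log2 difference was 0.42 (SE 0.14, adjusted p = 0.187 in limma). The direction thus differed among miRNAs. In mean, the longer form was the smaller part in cold livers for miR-192 and let-7. It was the larger part for miR-21, miR-99, miR-122 and miR-148a. None of these passed the test.

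**Figure D4:**
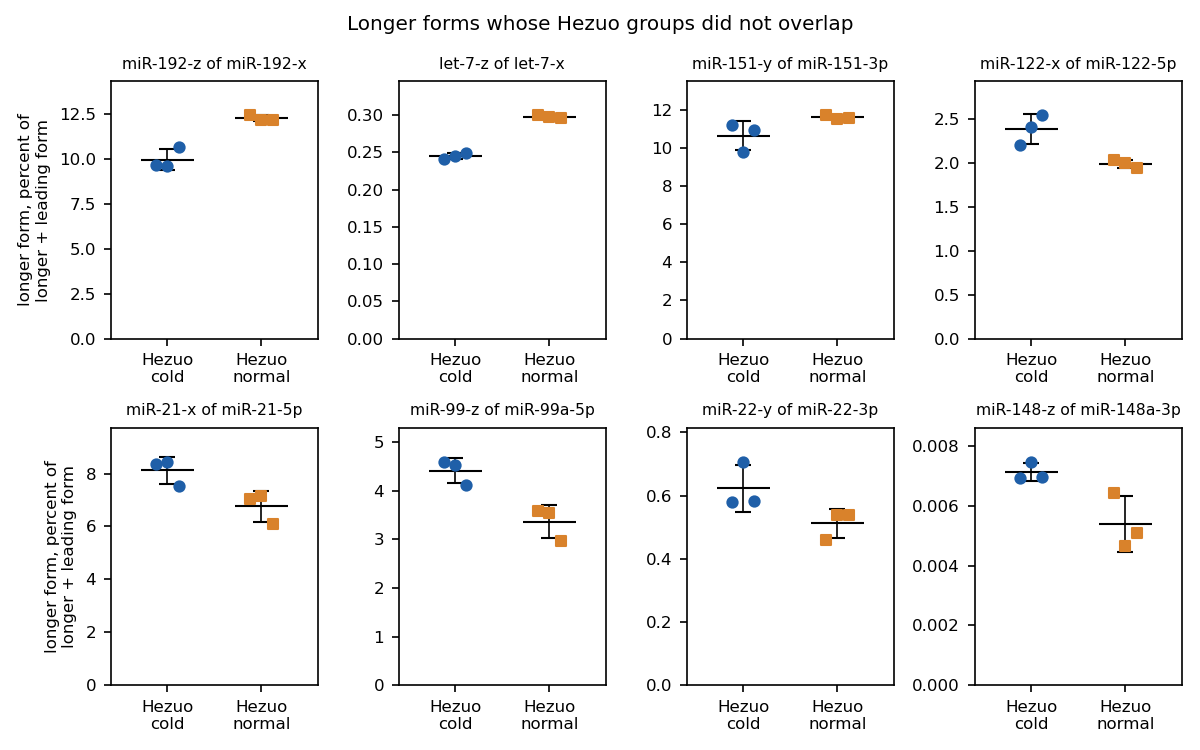
Percent of the longer form in the sum of the longer and the leading form, for the 8 of 33 pairs whose Hezuo groups did not overlap; points are libraries, bars the mean and SD of 3, with an axis from 0. The cold livers (left, blue) are below the normal livers (right, orange) for miR-192-z, let-7-z and miR-151-y and above them for the other 5.

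The 2 strands of 25 precursors were compared in the same way, as log2 of the 5p over the 3p count. In 5 (20.0%) the groups did not overlap, 4 with the cold livers above. limma called 0 of 25 (0.0%), with 1 at an unadjusted p below 0.05 (4.0%). That 1 was let-7d, with a mean log2 ratio of 3.62 in cold and 3.03 in normal livers (limma log2 difference 0.59, adjusted p = 0.487).

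miRNAs were also grouped by known role, and each list is set against all 460 tested entries, of which 206 (44.8%) had a positive log2 difference and the median was −0.04. The lists overlap one another and were chosen with earlier results of these data known. Entries with the same counts were taken once in each, and 0 entries of any list passed edgeR's test. At an unadjusted p below 0.05 stood 9.35% of all tested entries, 4.13% higher and 5.22% lower. The glucose and insulin list lay highest among the role lists: 22 of 29 tested entries were positive, with a median of 0.12. Its 5 entries at an unadjusted p below 0.05 were all higher in the cold livers: miR-7-5p, miR-378, its longer form miR-378-y, miR-107 and miR-29b. In the lipid and cholesterol list 21 of 36 were positive (median 0.07), with miR-107, miR-185 and miR-148-z among its 4 higher entries at that level and miR-122-5p as its 1 lower one. In the liver list 7 of 23 were positive, with a median of −0.17. Its 5 entries at that level were all lower: miR-122-5p, miR-192-z, miR-192-x, miR-101 and miR-101-y. These include length forms of the same miRNAs.

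In the list of brown fat and thermogenesis 14 of 39 were positive (median −0.04), with miR-378 and miR-378-y higher and miR-328 and miR-455-3p lower at an unadjusted p below 0.05. In the hypoxia list 6 of 18 were positive (median −0.12), with 1 higher (miR-107) and 1 lower (miR-210). In the p53 and oxidative stress list 15 of 30 were positive (median −0.02), with miR-107 and miR-141 higher and miR-192-x and miR-192-z lower. In the inflammation list 8 of 24 were positive, with a median of −0.20, the lowest of the role lists. Its entries at that level were miR-9 and miR-21-x on the higher side and miR-181a and miR-181-y on the lower. In the fibrosis list 19 of 40 were positive (median −0.03), with 4 higher (miR-29b, miR-378, miR-378-y and miR-21-x) and 3 lower (miR-101, miR-101-y and miR-181-y).

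The scaling bears on these medians. With library totals in place of TMM the median of all entries was 0.14, and the medians of the brown fat, hypoxia, p53 and fibrosis lists were above 0, between 0.07 and 0.16, while the inflammation list was at −0.01, the liver list at −0.00 and the glucose and insulin list at 0.29. With DESeq2 size factors the p53 and fibrosis medians were also just above 0, at 0.01 and 0.00. The lymphoid median of the marker lists below was 0.00 with library totals. The glucose list lay above and the liver list below the median of all entries under TMM, DESeq2 size factors, upper quartile scaling and library totals. A change of scaling moved these medians by nearly the same amount, so their order could hardly change.

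The marker lists of other cell types gave no entry that passed. The 7 myeloid entries were all positive (median 0.14), and their summed level was 573, 466 and 655 CPM in the cold livers, against 443, 696 and 488 CPM in the normal livers, with overlapping groups. The erythroid sum, nearly all miR-451, was 997, 670.4 and 2449 CPM in the cold livers, against 949, 1892 and 632 CPM in the normal livers. It was highest in cold liver 3 and normal liver 2 and the groups overlapped. The endothelial sum was 12661, 13183 and 13859 CPM in the cold livers, against 11405, 11537 and 12893 CPM in the normal livers, with normal liver 3 inside the range of the cold livers. The stromal list had a median of 0.04 over 16 entries, the lymphoid list −0.18 over 4, and the list of biliary and other epithelium 0.00 over 6. The part of these cells in the results above was not tested.

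**Figure D5:**
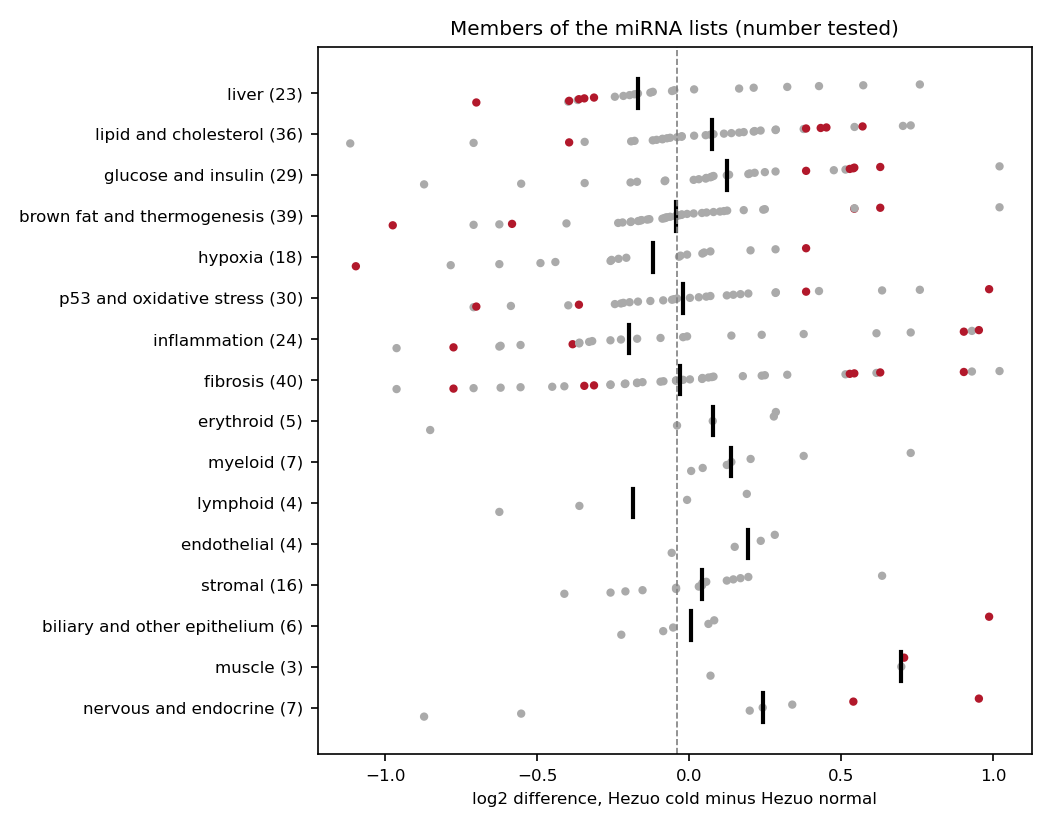
Log2 difference (Hezuo cold minus Hezuo normal) of each tested member of the 8 role lists and 8 marker lists, with the number tested in brackets; red points had an unadjusted p below 0.05, black bars are list medians and the dashed line is the median of all 460 entries, −0.04. The bar of the glucose and insulin list lies right of the line and that of the liver list left of it.

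Whether the response differs from that of Bama livers was tested as the difference between the log2 differences of the breeds in the same model. edgeR called 0 of 460 (0.0%), with a smallest adjusted p of 0.766 and 25 entries at an unadjusted p below 0.05 (5.43%; 14 entries without Hezuo normal liver 3), 11 with the higher value in Hezuo (2.39%) and 14 with the lower (3.04%). Of the 282 seed families 0 were called (0.0%) and 14 (4.96%) had an unadjusted p below 0.05, 8 on the higher side (2.84%) and 6 on the lower (2.13%). DESeq2 and limma-voom called 0 as well. The entries nearest to the threshold on the positive side were miR-574-5p, with a log2 difference of 0.24 in Hezuo and −0.71 in Bama livers, and miR-9, with 0.95 in Hezuo and −0.04 in Bama livers. On the negative side stood miR-508-y (−0.34 in Hezuo, 1.24 in Bama), miR-29a-3p (0.07 and 0.53) and miR-101 (−0.31 and 0.13). All 5 had an adjusted p of 0.766.

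The lowest-p entries of the Hezuo comparison are set beside their Bama values here. miR-192-z had a log2 difference of −0.70 in Hezuo and −0.74 in Bama livers, and miR-181-y had −0.78 in Hezuo and −0.91 in Bama livers. miR-7-5p had 0.54 in Hezuo and 0.61 in Bama livers, and miR-378 had 0.63 and 0.60. For these 4 the difference between breeds was at most 0.13 in size, with an edgeR adjusted p of 0.998. For miR-122-5p the values were −0.40 in Hezuo and −0.11 in Bama livers, a difference of −0.28 (edgeR adjusted p = 0.961). No response is therefore shown to belong to Hezuo alone by this test, which had 8 residual degrees of freedom.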

How the data were processed

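The deposited table holds counts of small RNA tags per miRNA entry, with a TPM column per library and each mature sequence. Per the labels' protocols, total RNA was size-selected on a gel and ligated to adapters. For the aligner, genome build and counting rule, the labels used here name none. The TPM deposited by the authors served only to recover library totals. All 12 libraries were fitted in 1 edgeR 4.0.16 model with a coefficient per group (R 4.3.3): TMM scaling, filterByExpr by group, which kept 460 of 774 entries, robust quasi-likelihood F tests, and p-values adjusted by Benjamini and Hochberg's method over all entries tested. Seed families are sums of counts, with entries of the same counts entered once. Ratios of length forms and strands were tested with limma 3.58.1, a choice made after seeing the data. Shares were compared with exact permutation tests. Scripts were tested on simulated data. Tags that match several entries may be divided or counted repeatedly between related entries, so near-identical forms are uncertain.

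The members and lists were chosen with earlier results of these data known. Named are, in each direction, the 12 entries with the smallest unadjusted p among those with no overlap and at least 10 CPM in a group, the 10 most abundant, the 2 most abundant of each list, those nearest to the threshold of the difference between breeds, and their other forms. Extremes and single members of short counts that are named beside these were chosen after their values were seen. Alternatives were other scalings, filters, tools and samples in the fit, a replicate block, and leaving out each Hezuo library.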

Additional observations from a re-analysis of the deposited data

How the results depend on the processing

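Counts of 0 at an adjusted p below 0.05 held under every scaling, filter and tool tried. The exception was the replicate block by pig number. There edgeR called 4 entries at an adjusted p of 0.0486, the 3 miR-9 entries (higher) and miR-192-z (lower). The adjustment counted the 3 miR-9 entries separately although they are 1 measurement, and all 4 passed only for that reason. The miR-9 seed family, in which these counts enter once, passed in no alternative (lowest adjusted p 0.109 over the edgeR, DESeq2 and limma-voom fits). For the 4 entries the adjusted p ranged up to 0.698 over the other alternatives. The deviations of same-numbered livers correlated at 0.113, 0.0621 and 0.0101, and those of differently numbered livers at −0.128 to 0.0517. With 3 livers per group such correlations can neither show nor exclude pairing. No label ties the numbers to animals, so the main fit has no block. Without cold liver 3, limma called 1 longer form (miR-221-y, adjusted p 0.0394; range 0 to 1 when each liver was left out).

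Entries at an unadjusted p below 0.05 numbered 27 when entries with the same first 16 nt were summed, and 29 to 45 with each liver left out. The 19 higher and 24 lower entries under TMM became 42 and 6 with library totals, 25 and 17 with the DESeq2 test, and 24 and 23 with DESeq2 size factors. For seed families the count was 37 with library totals (34 higher, 3 lower), 13 to 24 with a liver left out, 7 higher and 17 lower with upper quartile scaling, and 9 and 14 in the Hezuo libraries alone. For the difference between breeds it was 14 without normal liver 3 (range 14 to 28), 18 and 6 with library totals, 17 and 9 without miR-122-5p, and for seed families 23 without a filter (10 to 16 with a liver left out). The miR-148a-3p share differed by 4.10 points without miR-122-5p in the sum.

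Some log2 differences near 0 changed sign. miR-192 was 0.13 with library totals and ranged between −0.13 and 0.088 with each liver left out, above 0 without normal liver 3 (0.088) and without cold liver 3 (0.069). miR-26a was 0.11 with library totals and ranged between −0.12 and 0.022, above 0 without normal liver 3. miR-122-x was 0.063 with library totals and ranged between −0.20 and 0.049, above 0 without normal liver 3 and without cold liver 1 (0.037). miR-451 ranged between −0.40, without cold liver 3, and 0.83. The cause was not tested. The other entries and families followed through these alternatives kept their direction. For entries chosen for groups without overlap, leaving out a liver could hardly change it. The biological coefficient of variation was 25.0%, and counts of a few tags limit the low entries.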

Other observations

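Among entries under 10 CPM, which the rule for named entries left out, a few with known roles were looked at after their values were seen. miR-210, the best known miRNA induced by hypoxia-inducible factor, had 0.578, 0.646 and 0.749 CPM in the cold livers, against 1.47, 1.45 and 1.34 CPM in the normal livers, from 5, 5 and 6 counts in cold and 12, 15 and 10 in normal livers. The groups did not overlap, and the log2 difference was −1.10 (SE 0.44, edgeR adjusted p = 0.430). Its longer and more abundant form miR-210-z had 7.39, 7.11 and 6.74 CPM in the cold livers, against 8.44, 12.1 and 9.26 CPM in the normal livers, again without overlap, and −0.49 (SE 0.33, edgeR adjusted p = 0.750). Both were lower in mean in the cold livers.

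miR-455-3p, of a miRNA that promotes brown fat differentiation in mice, had 1.62, 1.03 and 1.25 CPM in the cold livers, against 3.18, 2.42 and 2.15 CPM in the normal livers. The fitted log2 difference was −0.98 (SE 0.35, edgeR adjusted p = 0.370), and in Bama livers it was −0.98. The far more abundant opposite strand, miR-455-5p, had 107 CPM in cold and 124 CPM in normal livers. Its log2 difference was −0.22 (edgeR adjusted p = 0.758), and that of miR-455-z was −0.17 (edgeR adjusted p = 0.950). miR-141, an epithelial miRNA of the miR-200 family, had 2.54, 3.10 and 3.12 CPM in the cold livers, against 1.83, 1.35 and 1.21 CPM in the normal livers, without overlap, and a log2 difference of 0.99 (SE 0.34, edgeR adjusted p = 0.370). The other tested entries of its marker list overlapped, with edgeR adjusted p-values of 0.901 to 0.979. They were miR-141-y (−0.09), miR-200b (0.06), miR-200-y (−0.05), miR-200-x (0.08) and miR-429 (−0.22). miR-135 had the highest log2 difference of all tested entries, 2.37 (SE 0.87, edgeR adjusted p = 0.370), from 7, 7 and 17 counts in cold and 3, 1 and 2 in normal livers.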
